A study of Mus musculus with 4 samples.

Results

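Transcripts of 9 stem-like and memory factor genes, Tcf7, Lef1, Bach2, Id3, Klf2, Foxo1, Satb1, Slamf6 and Myb, were measured in CD8+ T cells enriched from tumour grafts. The genes were picked by symbol, and all 9 were found once among the 36464 gene IDs of the deposited files. The mice were wild type C57BL/6 males with a percutaneous tumour graft, and they received either an antibody against SIGLEC15 or control IgG by intraperitoneal injection for 2 weeks. Grafts were collected on day 19 from 6 mice per treatment, and the pellets were mixed 3 to a library, so that there were 2 anti-SIGLEC15 libraries and 2 IgG libraries. Neither the tumour line nor the age of the mice is stated in the labels. The p-values below measure the spread between these pools and not between single mice. SIGLEC15 is a sialic acid-binding lectin studied as an immune checkpoint molecule, and the comparison asks what its blockade changes in CD8+ T cells of the tumour.

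CD8+ T cells in tumours are known to include a small stem-like population that renews itself and feeds the larger population of effector and exhausted cells. TCF1, the product of Tcf7, and its relative LEF1 are HMG-box transcription factors that maintain naive, memory and stem-like T cells. FOXO1 is a forkhead factor that is excluded from the nucleus when AKT phosphorylates it, and in resting T cells it sustains Klf2 and Il7r. KLF2 in turn drives S1pr1, the receptor that lets T cells leave tissue, and it is also a well-known gene of endothelium. BACH2 is a repressor that restrains effector differentiation, ID3 blocks the E protein transcription factors, SATB1 organises chromatin in thymocytes and T cells, and c-MYB, the product of Myb, sustains blood progenitors and stem-like CD8+ T cells. SLAMF6 is a surface receptor that binds itself and marks stem-like exhausted cells.

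The promoters of Tcf7, Klf2 and Id3 are shown because these genes shared a pattern across the libraries, described below. Each window holds 250 bases before and 50 bases after a transcription start in RefSeq on GRCm38.p6. The windows are chr11:52282965-52283264 and chr11:52282546-52282845 on the minus strand for Tcf7, chr8:72318812-72319111 on the plus strand for Klf2 and chr4:136143572-136143871 on the plus strand for Id3. Capitals mark every match, on either strand, to ATCAAAG (TCF/LEF), GTAAACA (FOXO), CAGCTG (an E-box), TGANTCA (BACH or AP-1), CCACCC (KLF) and AACGG or AACTG (MYB). No matches overlapped in these windows.
Tcf7 promoter, window 1: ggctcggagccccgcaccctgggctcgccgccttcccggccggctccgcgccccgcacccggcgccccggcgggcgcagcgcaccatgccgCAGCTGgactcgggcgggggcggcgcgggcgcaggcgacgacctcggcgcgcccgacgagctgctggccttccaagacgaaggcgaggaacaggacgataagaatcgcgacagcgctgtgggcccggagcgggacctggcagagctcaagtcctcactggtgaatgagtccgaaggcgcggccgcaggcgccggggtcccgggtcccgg
Tcf7 promoter, window 2: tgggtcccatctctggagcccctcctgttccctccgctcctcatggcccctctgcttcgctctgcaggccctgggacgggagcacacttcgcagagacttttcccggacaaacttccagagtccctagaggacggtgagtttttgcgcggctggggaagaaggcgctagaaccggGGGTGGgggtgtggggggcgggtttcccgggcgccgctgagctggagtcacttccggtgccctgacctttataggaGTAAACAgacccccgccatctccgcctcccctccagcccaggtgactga
Klf2 promoter: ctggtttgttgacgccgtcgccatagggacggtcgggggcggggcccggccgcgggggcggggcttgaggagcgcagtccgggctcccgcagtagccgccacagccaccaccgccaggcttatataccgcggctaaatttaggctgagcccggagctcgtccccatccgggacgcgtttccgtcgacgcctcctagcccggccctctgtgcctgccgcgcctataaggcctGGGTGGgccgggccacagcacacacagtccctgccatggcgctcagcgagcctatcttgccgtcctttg
Id3 promoter: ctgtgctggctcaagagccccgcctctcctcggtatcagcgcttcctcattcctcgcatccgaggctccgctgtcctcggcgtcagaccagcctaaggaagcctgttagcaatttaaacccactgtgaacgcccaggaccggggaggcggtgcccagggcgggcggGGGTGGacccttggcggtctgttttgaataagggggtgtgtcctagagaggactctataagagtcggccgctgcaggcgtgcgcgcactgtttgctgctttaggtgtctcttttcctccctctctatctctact

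The first Tcf7 window held the E-box letters, and the second a KLF match and a FOXO match. The Klf2 and Id3 windows held a KLF match each. In the first Tcf7 window an ATG comes shortly before the E-box letters. From this ATG the window reads as codons, without a stop codon, to its last base. The E-box letters lie in that reading frame and may be coding sequence, which was not tested. Over all 17 RefSeq windows of the 9 genes, 10 held the KLF letters, 8 the MYB letters, 3 the E-box, 2 the FOXO letters, and 0 the TCF/LEF or the BACH letters. Of 32851 mouse windows of the same length, 31.5% held the KLF letters, 55.1% the MYB letters, 16.3% the E-box, 3.65% the FOXO letters, 3.73% the TCF/LEF letters and 7.81% the BACH letters. Some windows of Lef1 and Satb1 overlap each other, and the first Tcf7 window is 76.3% GC where the median window is 52.7% GC. A match describes letters and not a bound site.

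The libraries were of similar depth, with 14854802 to 16026197 reads counted in genes, but they differed in what they held. Levels are given in RPKM, reads scaled to exon length and to the library's read total, as deposited by the authors. The geometric mean of RPKM + 1, less 1, over 17 T cell identity markers was 102 and 109 in anti-SIGLEC15 replicates 1 and 2, against 35.9 and 113 in IgG replicates 1 and 2, and all 17 markers were lowest in IgG replicate 1. Cd8a, a chain of the CD8 coreceptor, measured 290.2 and 315 RPKM with anti-SIGLEC15, against 115 and 351 RPKM with IgG, so the labelled cell type was present in every library. Hepatocyte and hepatoma markers had geometric means of 75.5 and 24.9 in anti-SIGLEC15 replicates 1 and 2, against 85.1 and 29.55 in IgG replicates 1 and 2, and 9 of 9 tested members were higher in replicate 1 than in replicate 2 of both treatments. B cell markers were under 1 RPKM in every library (8 of 8), as were 7 of 8 endothelial markers, Cdh5, Kdr, Tie1, Tek, Cldn5, Emcn and Plvap. Summed RPKM of 6 CD4 and regulatory T cell markers was 24.3 and 22.3 with anti-SIGLEC15, against 23.0 and 22.4 with IgG, with Cd4 at 6.83 and 4.66 RPKM against 2.04 and 4.89 RPKM, and Foxp3 under 1 RPKM in every library. Summed RPKM of 6 NK cell markers was 79.3 and 108 with anti-SIGLEC15, against 75.9 and 74.4 with IgG. Of these, Ncr1 and Klrb1c stayed under 1 RPKM in every library, while Klre1 measured 31.3 and 37.6 RPKM against 9.25 and 35.2 RPKM, and Tyrobp, which myeloid cells also express, 18.7 and 41.3 RPKM against 58.2 and 5.32 RPKM. The summed RPKM of erythroid and progenitor markers was 114 and 20.9 with anti-SIGLEC15, against 692 and 1931 with IgG, and that of macrophage and neutrophil markers was 230.3 and 375 with anti-SIGLEC15, against 804 and 91.0 with IgG. Of the genes in these lists, Gata1, Klf1, Cd34, Adgre1, Csf1r and Ly6g stayed under 1 RPKM in every library, while others were abundant. Hbb-bs measured 53.7 and 9.55 RPKM with anti-SIGLEC15, against 360 and 986 RPKM with IgG. S100a9 measured 149 and 245 RPKM against 579 and 46.7 RPKM, and Cd68 24.8 and 31.0 RPKM against 28.1 and 24.5 RPKM. In RNA from a mixture of cells, fewer cells of a type and less RNA per cell cannot be told apart.

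The order of the levels per length was nearly the same in every library. Klf2 was the highest of the 9, followed by Id3, Tcf7 and Foxo1, which held these ranks in all 4 libraries, and Bach2 was the lowest in all 4. Slamf6 and Myb exchanged the fifth and the sixth rank between libraries, and Lef1 and Satb1 the seventh and the eighth, so neither pair was separated beyond its spread. The level of Klf2 in IgG replicate 2 lay under that of Id3 in IgG replicate 1, although Klf2 exceeded Id3 within each library. The bar plots of RPKM by library show these values with their counting errors.

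**Figure D1:**
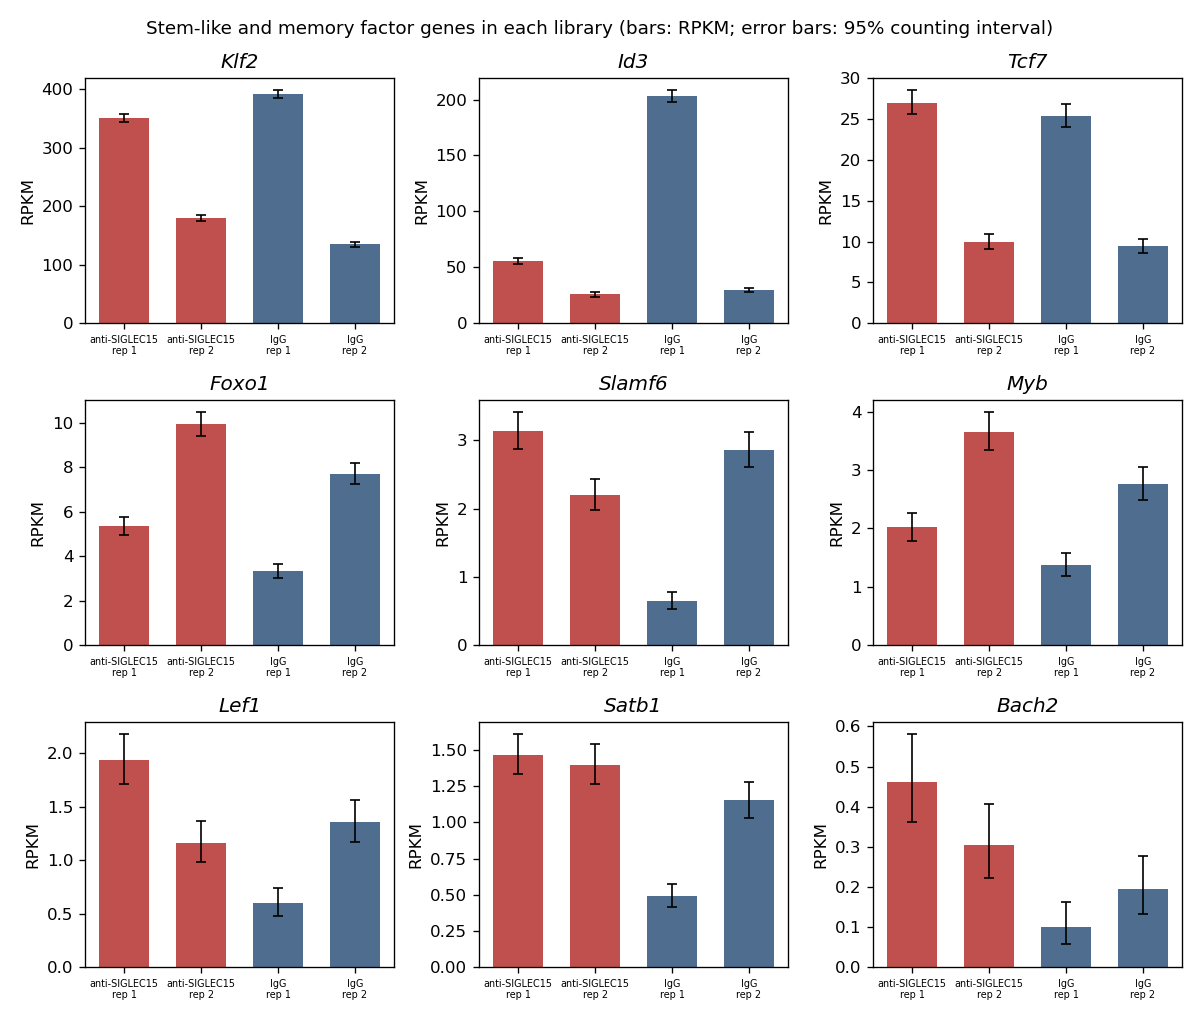
RPKM of each of the 9 genes in the 2 anti-SIGLEC15 libraries (red) and the 2 IgG libraries (blue); bars are single libraries and error bars are 95% exact Poisson intervals of the recovered reads. Klf2, Id3 and Tcf7 were higher in replicate 1 than in replicate 2 of both treatments, Foxo1 and Myb were lower, and Satb1 and Bach2 were the 2 genes whose treatments did not overlap.

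No stem-like or memory factor gene passed the test between treatments. The test was limma on log2(RPKM + 1), with Benjamini-Hochberg adjustment over 12484 genes that reached 1 RPKM in at least 2 libraries, and 8 of the 9 genes entered it. It called 0.0% of these 12484 genes at an adjusted p under 0.05, and 1.17% (146 genes) had an unadjusted p under 0.05, among them 0 of the 8. limma-voom on the recovered reads also called 0 genes, of 15061 tested, with 90 at an unadjusted p under 0.05. With 2 libraries against 2, the smallest two-sided exact permutation p for a single gene is 0.333. Satb1 and Bach2, 2 of the 9 genes, were the ones whose lowest anti-SIGLEC15 library exceeded their highest IgG library, and 0 of the 9 showed the reverse. Over all 31373 genes with any reads, 14.1% were separated upward and 6.29% downward in this way, and over the 12484 tested genes, where 1 of the 8 was separated upward, 12.1% and 6.02%. The median log2 fold change of the 8 tested genes was 0.35, against 0.02 over all tested genes, and leaving out IgG replicate 1 or IgG replicate 2 gave 0.14 or 0.66. Without IgG replicate 1 the same test called Klf2, with 1.0% of all tested genes called, and without IgG replicate 2 it called Id3 and Slamf6, with 17.1% of all tested genes called. Of the 8 tested genes, 5 were lowest in IgG replicate 1, as were 43.4% of all tested genes, and 2 were highest there, as were 34.0%.

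The transcription factor genes Tcf7 and Lef1, whose products bind the same DNA letters, did not follow each other. Tcf7 (ENSMUSG00000000782, GRCm38 chromosome 11, 52252371 to 52283014, minus strand) measured 27.05 RPKM (1282 reads) and 9.945 RPKM (446 reads) in anti-SIGLEC15 replicates 1 and 2, against 25.4 RPKM (1229 reads) and 9.44 RPKM (442 reads) in IgG replicates 1 and 2. The first replicate of each treatment was 2.72-fold (anti-SIGLEC15) and 2.69-fold (IgG) above the second, and the treatments overlapped. The mean was 18.5 ± 12.1 RPKM with anti-SIGLEC15 and 17.4 ± 11.3 RPKM with IgG (SD, n = 2 each), with a log2 fold change of 0.08 (SE 0.66, limma adjusted p = 1). The 95% counting intervals were narrow beside this spread, at 25.6 to 28.6 RPKM in anti-SIGLEC15 replicate 1 and 9.04 to 10.9 RPKM in anti-SIGLEC15 replicate 2. Lef1 (ENSMUSG00000027985, chromosome 3, 131110471 to 131224356, plus strand) measured 1.94 and 1.16 RPKM in the anti-SIGLEC15 libraries, against 0.596 and 1.36 RPKM in the IgG libraries. It was highest in anti-SIGLEC15 replicate 1 and lowest in IgG replicate 1, the library where Tcf7 was near its maximum. The log2 fold change of Lef1 was 0.38 (SE 0.38, limma adjusted p = 1).

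Klf2 and Id3 had the library pattern of Tcf7, with larger differences in the IgG pair. Klf2 (ENSMUSG00000055148, chromosome 8, 72319033 to 72321656, plus strand) measured 350.4 and 180.1 RPKM with anti-SIGLEC15, against 392 and 135 RPKM with IgG, replicate 1 before replicate 2. Its mean was 265 ± 120.4 RPKM with anti-SIGLEC15 and 263 ± 182 RPKM with IgG (SD, n = 2 each), and the log2 fold change was 0.13 (SE 0.61, limma adjusted p = 1). Id3 (ENSMUSG00000007872, chromosome 4, 136143497 to 136145755, plus strand) measured 55.2 and 25.6 RPKM with anti-SIGLEC15, against 203 and 29.6 RPKM with IgG. The value of 203 RPKM, from 5833 reads, stood apart from the other 3 libraries. The mean of Id3 was 40.4 ± 20.9 RPKM with anti-SIGLEC15 and 116 ± 123 RPKM with IgG (SD, n = 2 each), with a log2 fold change of -1.03 (SE 0.97, limma adjusted p = 1). Without IgG replicate 1 the log2 fold change of Id3 was 0.34, so its direction rested on that library.

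Tcf7, Klf2 and Id3 were each at least 1.5-fold higher in replicate 1 than in replicate 2 in both treatments, a pattern shown by 12.7% of all tested genes. Foxo1 and Myb were at least 1.5-fold higher in replicate 2 in both treatments, a pattern shown by 3.0% of tested genes. The mitochondrial share of reads was 8.91% and 18.4% in anti-SIGLEC15 replicates 1 and 2, against 11.9% and 13.0% in IgG replicates 1 and 2, and so was higher in replicate 2 of both treatments. The labels give the replicate numbers without saying whether a number marks a shared batch. The hepatocyte and hepatoma markers had the pattern of Tcf7. The part of these markers, of the markers of other cells and of the mitochondrial share in the levels of the 9 genes was not tested. Alb, the serum albumin gene, measured 1089 and 625 RPKM with anti-SIGLEC15, against 2795 and 556 RPKM with IgG.

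**Figure D2:**
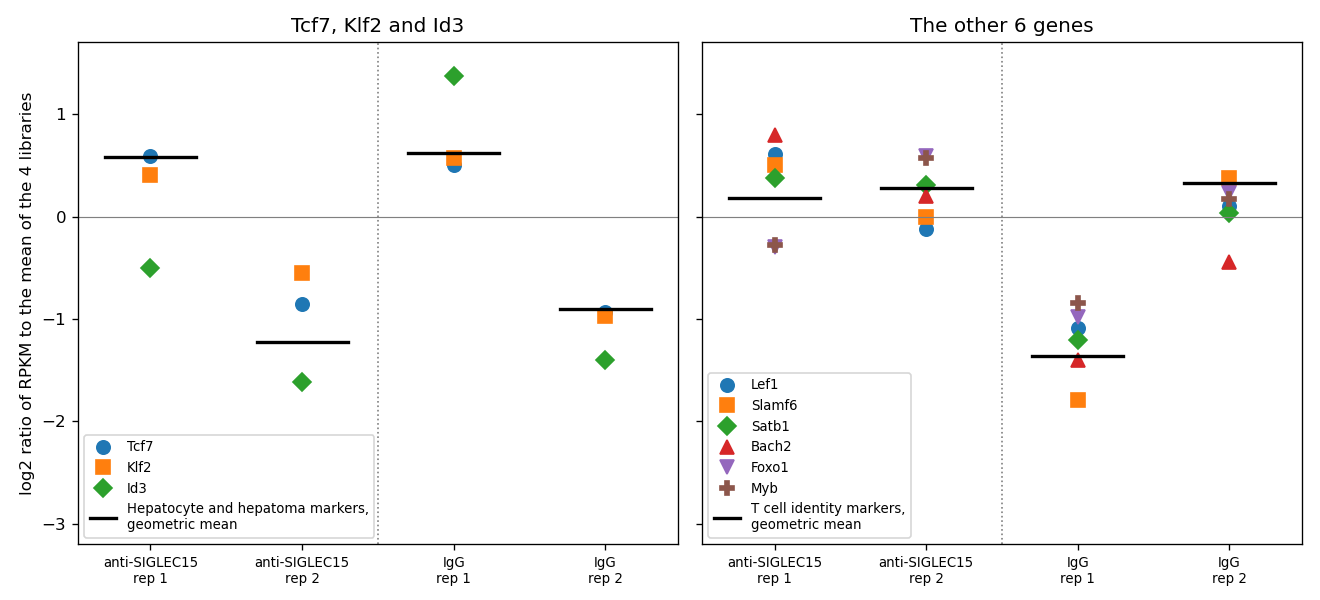
log2 ratio of each gene's RPKM to its mean over the 4 libraries (vertical axis) in each library, with anti-SIGLEC15 left of IgG; black lines are the geometric means of the hepatocyte and hepatoma markers (left) and of the T cell identity markers (right). Tcf7, Klf2 and Id3 were higher in replicate 1 of both treatments, and the other 6 genes were lowest in IgG replicate 1, where the T cell identity markers were lowest too.

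The genes nearest to Tcf7 in profile were F2, Ahsg and Apom, which liver cells express. Likeness was the root mean square difference between centred log2(RPKM + 1) values over the 4 libraries, among 5983 protein-coding genes with a mean of at least 5 RPKM. F2 encodes prothrombin, Ahsg encodes fetuin-A and is also in the hepatocyte and hepatoma list, and Apom is an apolipoprotein gene, and they lay at differences of 0.186, 0.191 and 0.202. F2 measured 10.6 and 4.57 RPKM with anti-SIGLEC15, against 14.2 and 3.58 RPKM with IgG. The 3 nearest to Klf2 were Ppp1r15a, a stress-response regulator of translation, F2 and Dnajb1, a heat shock co-chaperone, at 0.112, 0.119 and 0.127. Those nearest to Satb1 were Pet100, Zfp688 and Mrtfa, at 0.0128, 0.0192 and 0.0279. On this scale 182 genes lay within 0.1 of Satb1, and 0 within 0.1 of Tcf7 or of Klf2. The added 1 flattens the profile of a low gene such as Satb1. In RPKM, IgG replicate 1 over IgG replicate 2 was 0.424 for Satb1 and 0.656 for Pet100.

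Slamf6, Satb1 and Bach2 were lowest in IgG replicate 1, as the T cell identity markers were. Slamf6 (ENSMUSG00000015314, chromosome 1, 171917515 to 171953170, plus strand) measured 3.13 and 2.19 RPKM in anti-SIGLEC15 replicates 1 and 2, against 0.639 and 2.86 RPKM in IgG replicates 1 and 2. The treatments overlapped, and the log2 fold change was 0.53 (SE 0.5, limma adjusted p = 1), or -0.09 without IgG replicate 1. Satb1 (ENSMUSG00000023927, chromosome 17, 51736187 to 51833290, minus strand) measured 1.47 and 1.40 RPKM with anti-SIGLEC15, against 0.489 and 1.15 RPKM with IgG. The treatments did not overlap, but the intervals of anti-SIGLEC15 replicate 2 (1.26 to 1.54 RPKM) and IgG replicate 2 (1.03 to 1.28 RPKM) overlapped, and the log2 fold change was 0.44 (SE 0.35, limma adjusted p = 1). Bach2 (ENSMUSG00000040270, chromosome 4, 32238804 to 32586108, plus strand) measured 0.461 RPKM (72 reads) and 0.305 RPKM (45 reads) with anti-SIGLEC15, against 0.1004 RPKM (16 reads) and 0.195 RPKM (30 reads) with IgG. It was too low for the test, and its ratio of means was 2.60, with counting intervals of 0.222 to 0.408 RPKM in anti-SIGLEC15 replicate 2 and 0.131 to 0.278 RPKM in IgG replicate 2 that overlapped. In limma-voom on the reads, where Bach2 was tested, its log2 fold change was 1.41 with an adjusted p of 1.

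Foxo1 and Myb were highest in anti-SIGLEC15 replicate 2. Foxo1 (ENSMUSG00000044167, chromosome 3, 52268336 to 52353221, plus strand) measured 5.34 and 9.92 RPKM in anti-SIGLEC15 replicates 1 and 2, against 3.33 and 7.70 RPKM in IgG replicates 1 and 2. Myb (ENSMUSG00000019982, chromosome 10, 21124935 to 21160984, minus strand) measured 2.02 and 3.65 RPKM with anti-SIGLEC15, against 1.37 and 2.76 RPKM with IgG. Each replicate was higher with anti-SIGLEC15 than the IgG library of the same number, yet the treatments overlapped for both genes. The log2 fold change was 0.44 (SE 0.48) for Foxo1 and 0.33 (SE 0.4) for Myb, each with a limma adjusted p of 1. Without IgG replicate 1 these were -0.06 and -0.01.

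**Figure D3:**
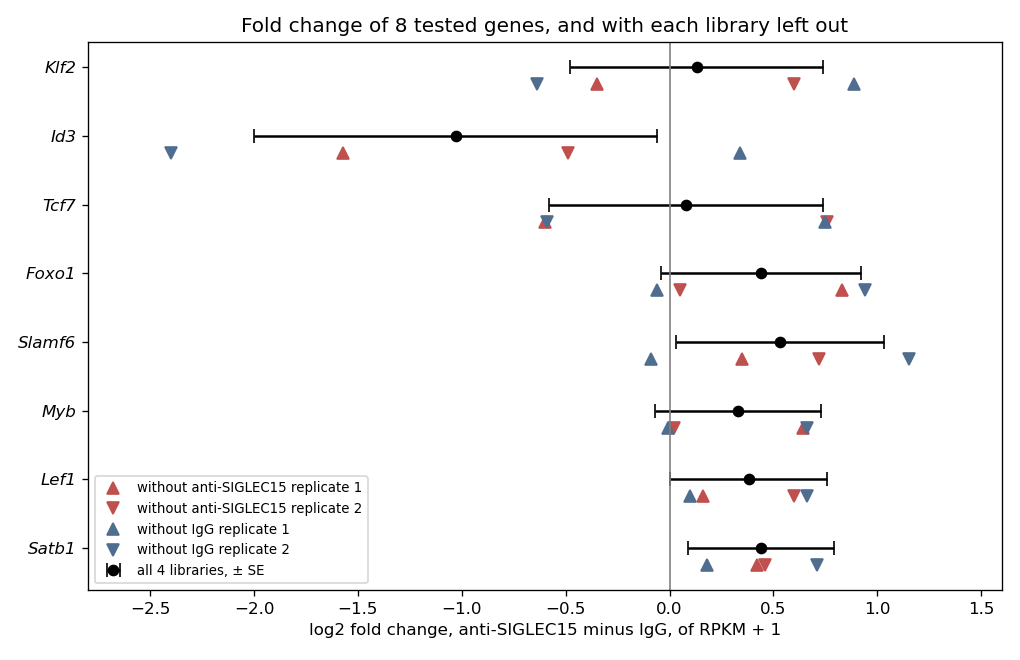
log2 fold change of RPKM + 1, anti-SIGLEC15 minus IgG, for the 8 tested genes (black, ± SE from limma on all 4 libraries), with the value when each library is left out (triangles, red for an anti-SIGLEC15 library and blue for an IgG library). For Klf2, Id3, Tcf7, Foxo1, Slamf6 and Myb the values with a library left out lay on both sides of 0, and for Lef1 (0.10 to 0.66) and Satb1 (0.18 to 0.71) they were all above 0.

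Set against the T cell markers of each library, Tcf7, Id3, Klf2, Foxo1 and Myb were highest in IgG replicate 1, Foxo1 only narrowly. Per 100 RPKM of the geometric mean of the T cell identity markers, Tcf7 measured 26.9 and 9.28 RPKM with anti-SIGLEC15, against 73.7 and 8.49 RPKM with IgG, replicate 1 before replicate 2. Id3 measured 55.0 and 23.9 RPKM on this scale, against 590 and 26.7 RPKM with IgG, and Klf2 349 and 168 RPKM, against 1137 and 122 RPKM with IgG. Foxo1 measured 5.32 and 9.25 RPKM on this scale with anti-SIGLEC15, against 9.68 and 6.93 RPKM with IgG. Myb measured 2.01 and 3.41 RPKM, against 3.97 and 2.49 RPKM with IgG. Lef1 was highest in anti-SIGLEC15 replicate 1, at 1.93 and 1.09 RPKM with anti-SIGLEC15, against 1.73 and 1.22 RPKM with IgG. Slamf6 stayed closer together, at 3.12 and 2.05 RPKM with anti-SIGLEC15, against 1.86 and 2.57 RPKM with IgG, as did Satb1, at 1.46 and 1.30 RPKM, against 1.42 and 1.04 RPKM with IgG, so that its treatments overlapped on this scale. Bach2 measured 0.460 and 0.284 RPKM per 100 RPKM of T cell markers with anti-SIGLEC15, against 0.291 and 0.175 RPKM with IgG, and its treatments overlapped as well. When all libraries were scaled to these markers before limma, the median log2 fold change of all tested genes was -0.62, where it had been 0.02. Relative to that median, Tcf7 (-0.65) and Klf2 (-0.62) were near the middle of all genes, Id3 (-1.77) was lower, and Lef1 (0.01), Satb1 (0.09), Slamf6 (0.14), Foxo1 (-0.19) and Myb (-0.18) were higher, with 0 of the 8 past the threshold where 0.024% of all tested genes passed.

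Genes that act downstream of FOXO1 and KLF2, or that mark naive and memory T cells, tended to be lowest in IgG replicate 1. Of the 14 genes for homing and survival of naive and memory T cells, 13 were tested, 0 passed, 6 were separated upward between the treatments and 0 downward, and 11 were lowest in IgG replicate 1. Over all 12484 tested genes, 0 passed, 12.1% were separated upward, 6.02% downward and 43.4% were lowest in IgG replicate 1. The median log2 fold change was 0.70, against 0.02 over all tested genes, and 0.29 without IgG replicate 1. The T cell identity markers had a median of 0.79, and all 17 were lowest in IgG replicate 1. Scaled to those markers, all tested genes had a median of -0.62 and the homing and survival list had 0.19. Its 3 most abundant tested members were Ly6c2, a surface antigen of memory CD8+ T cells, at 195 and 142 RPKM with anti-SIGLEC15 against 52.9 and 135 RPKM with IgG, the cytokine gene Ltb, at 121 and 121 RPKM against 80.1 and 106 RPKM, and the costimulatory receptor gene Cd27, at 57.9 and 64.0 RPKM against 22.8 and 67.7 RPKM. From the same list, S1pr1, Il7r and Ccr7 are given for their known link to FOXO1 and KLF2, and they were chosen with their values known. S1pr1, the egress receptor gene driven by KLF2, measured 12.2 and 5.17 RPKM with anti-SIGLEC15, against 1.37 and 4.70 RPKM with IgG, and Il7r, the interleukin 7 receptor gene, 8.79 and 6.03 RPKM, against 1.83 and 4.84 RPKM. S1pr1 was lowest in IgG replicate 1, the library in which Klf2 was highest. Ccr7, a lymph node homing receptor gene, measured 29.05 and 49.5 RPKM with anti-SIGLEC15, against 27.4 and 56.5 RPKM with IgG. Ccr7 was higher in replicate 2 of both, as Foxo1 was.

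Among 11 markers of stem-like exhausted T cells, 9 were tested, 0 passed, and 6 were separated upward and 0 downward, against 12.1% and 6.02% of all tested genes. The median log2 fold change was 0.95, or 0.31 without IgG replicate 1. In IgG replicate 1, 8 of the 9 were lowest, as were 43.4% of all tested genes. T cell identity markers in general had a median of 0.79, or -0.08 without IgG replicate 1. Of these 17 markers, 3 were separated upward and all 17 were lowest in IgG replicate 1. Scaled to the T cell identity markers, the stem-like exhausted list had a median of 0.22, the markers themselves 0.05 and all tested genes -0.62. Xcl1, a chemokine gene of stem-like CD8+ T cells, measured 152 and 173 RPKM with anti-SIGLEC15, against 53.8 and 127 RPKM with IgG. Cd81, a tetraspanin gene, measured 14.4 and 6.57 RPKM, against 36.3 and 8.64 RPKM with IgG, and Icos, a costimulatory receptor gene, 13.4 and 16.2 RPKM, against 5.86 and 17.2 RPKM with IgG. Cxcr5, a defining receptor of stem-like exhausted cells, stayed under 1 RPKM in every library. Cd28 and Il7r are in both this list and the homing and survival list. Il7r was separated upward, so the counts of these lists are not independent. The opposing list of transcription factors of effector and exhausted T cells had 18 tested members, of which 0 passed, 1 was separated upward and 0 downward (12.1% and 6.02% of all tested genes), and 16 were lowest in IgG replicate 1 (43.4% of all tested genes). Its median was 0.41, or -0.10 without IgG replicate 1. Id2, an ID protein gene of effector cells, was even across libraries, at 391 and 465 RPKM with anti-SIGLEC15 against 470.0 and 457 RPKM with IgG, while Bhlhe40 measured 279 and 342 RPKM against 208 and 405 RPKM, and Nr4a1 221 and 156 RPKM against 136 and 191 RPKM.

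**Figure D4:**
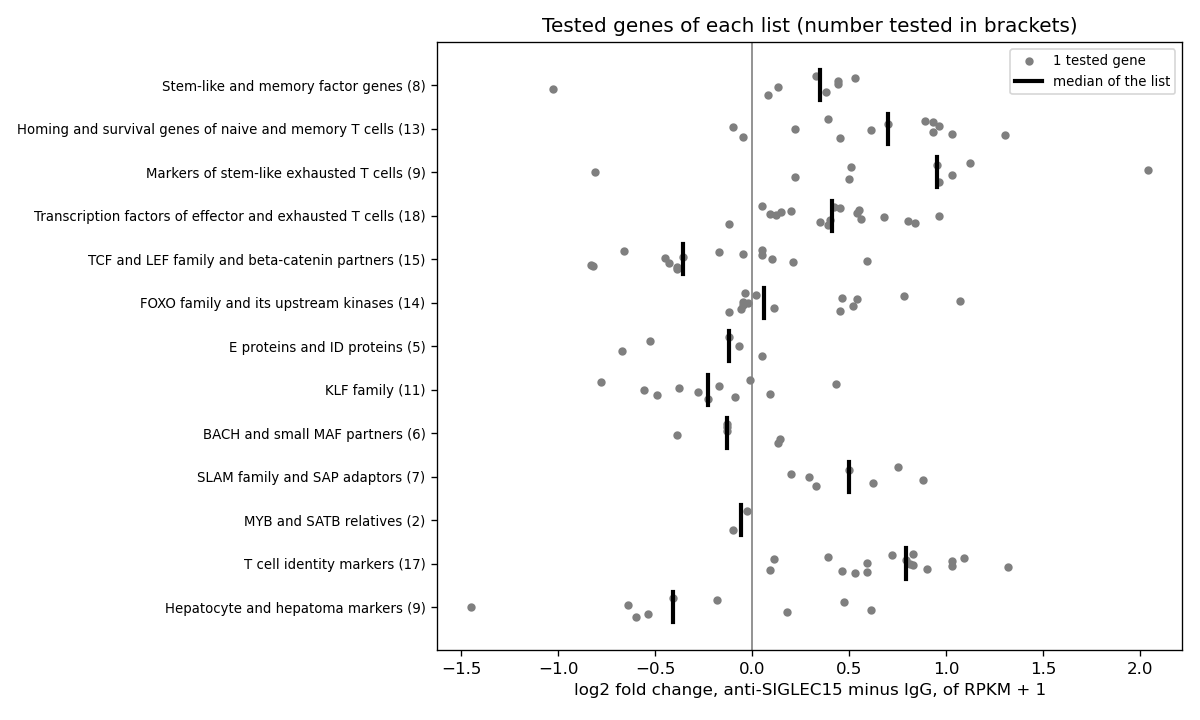
log2 fold change of RPKM + 1, anti-SIGLEC15 minus IgG, of every tested gene (grey points) of the 9 factor genes' list and of the related lists, with the median of each list (black). Among the 13 lists drawn, which leave out the markers of other blood and endothelial cells and of CD8 and CD4 T cells, the medians ran from -0.41 for the hepatocyte and hepatoma markers to 0.95 for the markers of stem-like exhausted T cells, and 0 of these genes passed the test.

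No relative or partner of Tcf7, Id3 or Klf2 in the lists passed the test, where 0 of all 12484 tested genes passed. Many of these relatives and partners were highest in IgG replicate 1, as were 34.0% of all tested genes. Of 15 tested TCF and LEF family and beta-catenin partner genes, 10 were higher in replicate 1 of both treatments, as were 39.4% of all tested genes, 10 were highest in IgG replicate 1, and the median log2 fold change was -0.36, or 0.05 both without IgG replicate 1 and for members of at least 5 RPKM. Ctnnb1, the beta-catenin gene, measured 29.9 and 21.4 RPKM with anti-SIGLEC15, against 47.1 and 23.6 RPKM with IgG. The co-repressor gene Aes measured 223 and 214 RPKM against 174 and 239 RPKM with IgG, and Axin1, a scaffold of the beta-catenin destruction complex, 19.8 and 15.3 RPKM against 20.6 and 18.9 RPKM. Axin2, a common target gene of beta-catenin signalling that was chosen with its values known, measured 6.17 and 3.04 RPKM with anti-SIGLEC15, against 15.9 and 3.27 RPKM with IgG. Of 11 tested KLF genes other than Klf2, 9 were higher in replicate 1 of both treatments and 9 were highest in IgG replicate 1, with a median of -0.23, or 0.17 without IgG replicate 1. Klf4, a factor of epithelial and myeloid cells, measured 97.1 and 68.4 RPKM with anti-SIGLEC15, against 216 and 34.5 RPKM with IgG. Klf6 measured 193 and 141 RPKM, against 159 and 150.2 RPKM with IgG, and Klf10 32.2 and 37.4 RPKM, against 74.98 and 27.3 RPKM. Of 5 tested E protein and ID protein genes, 3 were highest in IgG replicate 1, and the median was -0.12. Id1, an ID protein gene like Id3, measured 93.4 and 46.9 RPKM with anti-SIGLEC15, against 222 and 41.2 RPKM with IgG, and the E protein gene Tcf3 28.1 and 18.8 RPKM, against 20.2 and 24.2 RPKM.

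The lists around Foxo1, Bach2, Slamf6, Myb and Satb1 held no gene past the threshold either, where 0 of all 12484 tested genes passed. Of 14 tested genes of the FOXO family and its upstream kinases, 4 were separated upward and 0 downward, against 12.1% and 6.02% of all tested genes, with a median log2 fold change of 0.06. Akt1, which encodes a kinase that inactivates FOXO1, measured 53.8 and 51.2 RPKM with anti-SIGLEC15, against 43.4 and 69.3 RPKM with IgG, Sgk1, a related kinase gene, 34.5 and 24.8 RPKM against 57.7 and 15.7 RPKM, and Pik3cd, the leukocyte PI3 kinase gene, 33.9 and 27.9 RPKM against 7.14 and 27.03 RPKM. Of 6 tested BACH and small MAF partners, 5 were highest in IgG replicate 1, as were 34.0% of all tested genes. The median of this list was -0.13, or 0.37 without IgG replicate 1. Maff, Mafk and Nfe2l2 led this list, and Maff measured 19.9 and 22.2 RPKM with anti-SIGLEC15 against 47.6 and 11.03 RPKM with IgG. All 7 tested members of the SLAM family and its SAP adaptors were lowest in IgG replicate 1, as Slamf6 was. The same held for 43.4% of all tested genes and for all 17 T cell identity markers. The median of the SLAM list was 0.50, or -0.19 without IgG replicate 1. Cd48 measured 168 and 115 RPKM with anti-SIGLEC15, against 50.6 and 159 RPKM with IgG, Ly9 26.1 and 18.3 RPKM against 5.74 and 21.8 RPKM, and the SAP adaptor gene Sh2d1a 13.9 and 12.9 RPKM against 4.05 and 13.4 RPKM. Among relatives of Myb and Satb1, 2 genes were tested. Mybl2, a gene of dividing cells, measured 11.8 and 8.33 RPKM with anti-SIGLEC15, against 9.43 and 10.97 RPKM with IgG, and Mybl1 1.40 and 0.660 RPKM against 1.37 and 0.919 RPKM.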

How the data were processed

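Per the labels' protocols, RNA selected with oligo-coated beads was read on the DNBSEQ-G50 platform. The deposited RPKM values were computed by the authors. The unit is not named in the files and was read from the values: multiplied by the gene's exon length from GENCODE M21, a value was a whole multiple of 1 step per library for 98.92% to 98.97% of genes under 1000 reads, within 0.02. These steps gave the reads. For Tcf7, 3019 bases was the only length tried that gave whole reads in all 4 libraries, where M21 has 2625. GRCm38 and mm10 are named in the submitters' processing notes. No source used here names the aligner or the counting tool.

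M21 gave symbols for 36386 IDs, and 78 had none. Promoter sequences came from RefSeq (GRCm38.p6). limma used an intensity trend and robust shrinkage on log2(RPKM + 1), for genes that reached 1 RPKM in 2 or more libraries. Fold changes on this scale understate changes of low genes. Poisson intervals cover counting error only. Members and lists were chosen with earlier results of these data known. Named genes were the 9 members, the 3 most abundant tested genes of each list, and the nearest profiles. S1pr1, Il7r, Ccr7 and Axin2 fall outside that rule and were chosen with their values known. Alternatives were 3 scalings, a pseudocount of 0.1, no filter, a filter at 5 RPKM, limma-voom on reads (at least 10 in at least 2 libraries), a replicate block, protein-coding genes alone and each library left out. The fit was tested on simulated reads, where it recovered most large changes and made more false calls than the threshold allows. Those reads had the same cell mixture in every library and the same spread for every gene, unlike the deposited libraries. The outcome therefore does not show which changes the fit could find in the deposited libraries. Among lists of markers, erythroid and progenitor genes had a median log2 fold change of -4.42 (5 tested), macrophage and neutrophil genes 0.14 (6), NK genes 0.69 (4), CD4 and regulatory T cell genes 0.27 (4) and CD8 genes 0.49 (2). limma 3.58.1 ran in R 4.3.3, and the other steps in Python 3.11.15 with scipy 1.17.1, numpy 2.4.6 and pandas 2.3.3.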

Additional observations from a re-analysis of the deposited data

How the results depend on the processing

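The absence of calls depended on the IgG libraries. limma called 125 genes without IgG replicate 1, among them Klf2 (log2 fold change 0.89, adjusted p = 0.0261), and 2129 genes without IgG replicate 2, among them Id3 (-2.40, adjusted p = 5.95e-13) and Slamf6 (1.15, adjusted p = 0.0279). Both of those fits take their spread from the 2 anti-SIGLEC15 libraries, which correlated at 0.972 across genes where the IgG pair correlated at 0.884, and the lone IgG library is assumed to vary like them. With each library left out, 0 to 2129 genes and 0 to 2 of the 9 factor genes were called, 4 to 6 of the 9 were separated upward and 0 to 2 downward. Those separations set 1 library against 2 and are easier to reach, so the shares of all genes given for 2 against 2 do not apply. Whether the factor genes were separated more often than other genes with a library left out was not tested. The log2 fold changes with each library left out ran from -0.60 to 0.76 for Tcf7, -2.40 to 0.34 for Id3 and -0.64 to 0.89 for Klf2. For Foxo1 they ran from -0.06 to 0.94, for Slamf6 from -0.09 to 1.15 and for Myb from -0.01 to 0.66. Scaling to T cell markers moved the median log2 fold change of all tested genes to -0.62 and called 3 genes, none of the 9. It turned Tcf7 (-0.65), Klf2 (-0.62), Foxo1 (-0.19) and Myb (-0.18). This scaling divided every gene by 1.25 and 1.34 in anti-SIGLEC15 replicates 1 and 2, and by 0.43 and 1.39 in IgG replicates 1 and 2. It therefore raised all genes in IgG replicate 1. Why the T cell markers were low in that library was not tested. In the other alternatives 0 genes were called and the tested genes of the 9 kept their direction, of which Tcf7, Id3, Klf2 and Foxo1 alone could be fitted under the filter at 5 RPKM. Replicate numbers pair the samples by name only: deviations of same-numbered libraries correlated at 0.33 over 2 pairs, and the fit with a replicate block called 0 genes, with 303 at an unadjusted p under 0.05. Bach2, with 16 to 72 reads per library, is the gene most limited by depth.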

Other observations

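The ratio of Tcf7 to Lef1 within a library, each in RPKM, was 14.0 and 8.54 in anti-SIGLEC15 replicates 1 and 2, against 42.6 and 6.96 in IgG replicates 1 and 2. The ratio of Id3 to Id2 was 0.141 and 0.0550 with anti-SIGLEC15, against 0.432 and 0.0648 with IgG. Both ratios were highest in IgG replicate 1, the library with the lowest T cell identity markers.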
